A study of Drosophila melanogaster with 24 samples.

Results

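The diet response of male heads was set against that of male bodies in w1118 fruit flies, a white-eyed laboratory strain of Drosophila melanogaster. Males were kept for a week on a high-fat diet (HFD, a regular diet with 20% coconut oil) or on the regular diet (RD), and RNA of whole heads and of headless bodies was sequenced. The comparison used 12 of the 24 libraries of the series, the 12 columns of the male count table: 3 of HFD heads (replicate numbers 2, 3 and 4), 3 of RD heads (1, 2 and 3), 3 of HFD bodies (2, 3 and 4) and 3 of RD bodies (1, 2 and 3). The other 12 libraries are the same design in females. By their labels, samples were pools of some 100 heads or 10 bodies from flies aged 5 to 7 days, while the study's methods give another number of bodies, and no source says which flies made up which pool. The methods keep adults on standard food first and then on the diets for a week, so the age on the labels is also unclear. All groups shared the strain, the sex and the base food, and heads and bodies of a tube of flies were parted on a sieve. The contrast was the HFD over RD log2 fold change in heads minus the HFD over RD log2 fold change in bodies, so that a positive value means a higher response in heads than in bodies.

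A fly has fat body, the organ that does the work of liver and adipose tissue, in both the head and the trunk. It stores triglyceride and glycogen, breaks down amino acids, makes the serum storage proteins and secretes stress and immune peptides. Heads add the compound eyes and the brain, and male bodies add the gut, the flight muscle, the testes and the accessory glands, so a diet response can appear through tissue that both parts hold or through tissue found in only 1 of them. In pooled tissue, fewer cells of a type and less RNA per cell cannot be told apart.

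The counts assigned to genes came to 14.1 to 20.1 M in HFD heads, 15.6 to 18.2 M in RD heads, 13.4 to 25.7 M in HFD bodies and 16.4 to 21.1 M in RD bodies (M, mega). The libraries of 1 diet were not alike. The leading axis of the log2 levels, taken as deviations from the mean of each tissue, held 71.3% of the variance. On it the HFD 3 and HFD 4 libraries of both tissues (0.167 to 0.67) lay above every RD library (-0.436 to 0.0631). The HFD 2 head (-0.324) and the HFD 2 body (-0.278) lay among the RD libraries, so the axis did not part the diets over all libraries. Ribosomal protein genes took 4.26, 1.38 and 2.18% in HFD heads, against 5.6, 2.45 and 2.82% in RD heads. In bodies the share was 5.45, 2.99 and 3.17% on HFD, against 3.13, 3.97 and 4.15% on RD. The HFD 2 head and the HFD 2 body thus had the highest ribosomal share of their groups. Photoreceptor markers (13 genes, among them the rhodopsins) summed to 42200 to 81600 CPM (counts per M of total counts) in HFD heads and 65100 to 70800 CPM in RD heads. They were far lower in bodies, but reached 2690 CPM in the RD 3 body against 108 to 441 CPM in the other bodies. Testis markers (27 genes) were at 46.0 to 56.0 CPM in every head library but HFD 4, which held 229.9 CPM, and at 19300 to 22600 CPM in HFD bodies and 18100 to 20300 CPM in RD bodies. Eggshell markers (15 genes) were at or below 9.14 CPM in every library.

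**Figure D1:**
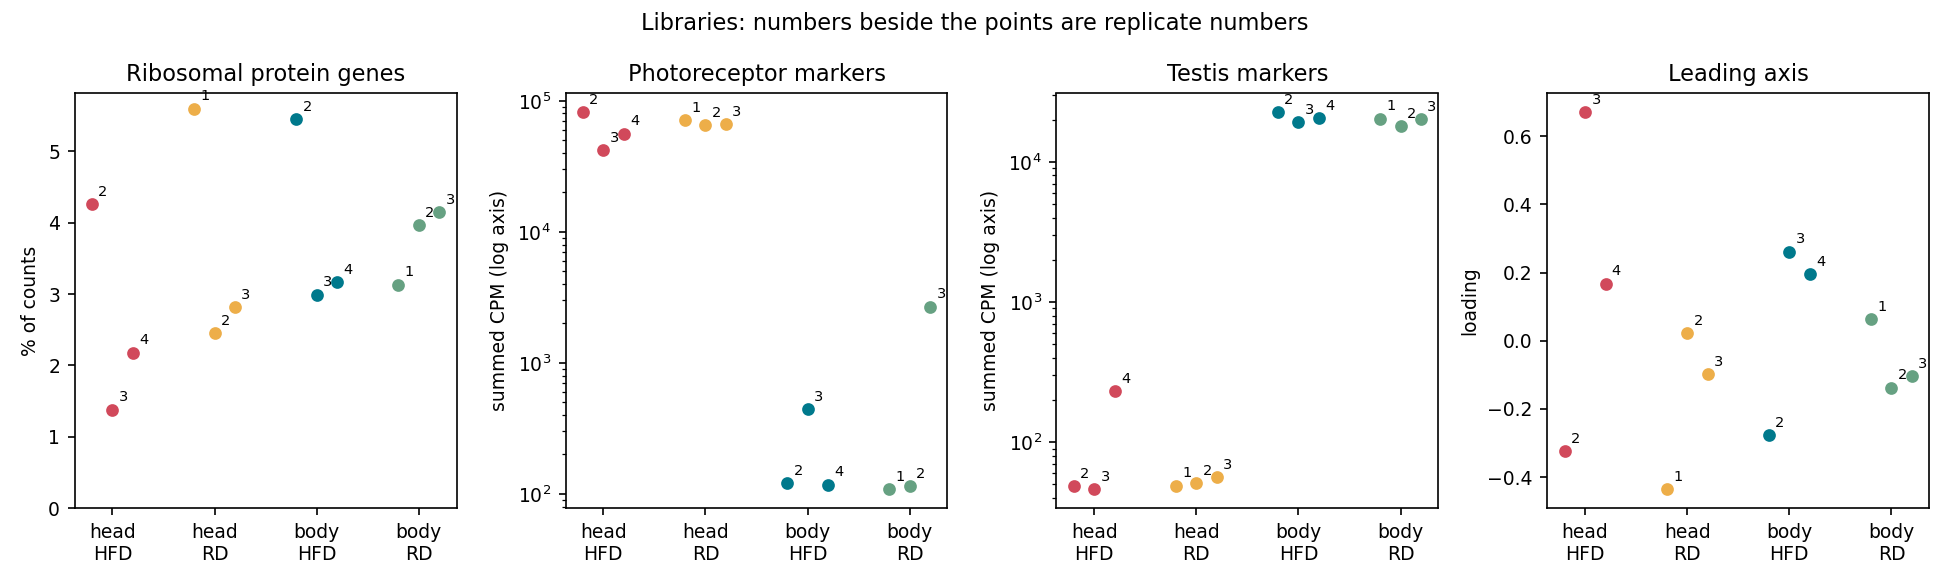
Each panel plots the 12 male libraries by group, head HFD, head RD, body HFD and body RD from left to right, with the replicate number beside each point: share of counts on ribosomal protein genes (%), summed CPM of photoreceptor and of testis markers (log axes), and the loading on the leading axis of deviations from the tissue mean. The HFD 2 libraries of heads and bodies both lie low on the leading axis (-0.32 and -0.28) and high in ribosomal share, the RD 3 body holds 2690 CPM of photoreceptor markers and the HFD 4 head 229.9 CPM of testis markers.

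The first question was whether any gene answered the diet differently in heads and in bodies. Of 16727 genes, 9777 passed the low-count filter in both tissues and were tested in 1 edgeR quasi-likelihood model of the 4 groups, and 0 genes (0%) had a Benjamini-Hochberg adjusted p under 0.05 for the interaction. The smallest adjusted p was 0.994. At an unadjusted p under 0.05 there were 70 genes (0.716%), of which 43 responded higher in heads and 27 higher in bodies. That split turned with the scaling, to 29 of 66 higher in heads with TMM factors over all libraries and 22 of 61 with total counts only, so the balance of directions is not given as a result. The same model gave 0 called genes for the diet effect in heads, in bodies and for their average, with 510 genes (5.22%), 209 genes (2.14%) and 650 genes (6.65%) at an unadjusted p under 0.05. Of all genes tested, 297 (3.04%) were higher and 213 (2.18%) lower in HFD heads at that threshold, and 62 (0.634%) were higher and 147 (1.5%) lower in HFD bodies, the shares against which the counts of each gene list are given. DESeq2 called 0 genes for the interaction, 12 in heads, 3 in bodies and 30 for the average, and limma-voom called 0 in each. These counts turned on the HFD 2 libraries and the RD 1 head: for the diet effect in male heads, genes at an unadjusted p under 0.05 numbered 4289 without both HFD 2 libraries, with 1064 in bodies and 476 for the interaction, and without the RD 1 head they numbered 240, with 46 for the interaction. The interaction had a median SE of 0.378 on the log2 scale, against 0.268 in heads and 0.266 in bodies, so a difference between the tissues was measured less finely than either response. None of the genes below therefore passed the adjusted threshold in edgeR, and they are given by their values and unadjusted p.

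Across genes the head and body responses leaned the same way. Over the 9777 genes the log2 fold changes of heads and bodies had a Pearson r of 0.40 and a Spearman rho of 0.50, and 69.1% of genes had the same sign in both tissues. Genes are not independent replicates, and heads and bodies were parted from 1 tube of flies, although the sources used here do not tie a replicate number to a tube, so this is a description. Without the HFD 2 head and body the r was 0.73, the rho 0.76 and the share with the same sign 79.4% over 9913 genes. Then the ribosomal share of the remaining HFD heads (1.38 and 2.18%) lay below that of all RD heads, and the part of that shift in the higher r was not tested. At an unadjusted p under 0.05 in each tissue there were 53 genes (0.542%): 41 were lower on HFD in both tissues (0.419%), 12 were higher in both (0.123%) and 0 (0%) went in opposite directions. The count was 642 without both HFD 2 libraries, 95 without the HFD 2 head and 156 with the ribosomal share as a covariate, of which 3, 3 and 1 went in opposite directions. Under limma-voom with sample quality weights it was 1855, with 52 in opposite directions, and 255 of these were called in both tissues, 2 in opposite directions. Of these 53 genes, 46 had no overlap between HFD and RD libraries in either tissue, and 1, Lip3, had an unadjusted interaction p under 0.05. By the libraries alone, 154 genes (1.58%) were free of overlap in both tissues in the same direction, 109 below RD and 45 above, and 9 genes (0.0921%) were free of overlap in opposite directions.

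**Figure D2:**
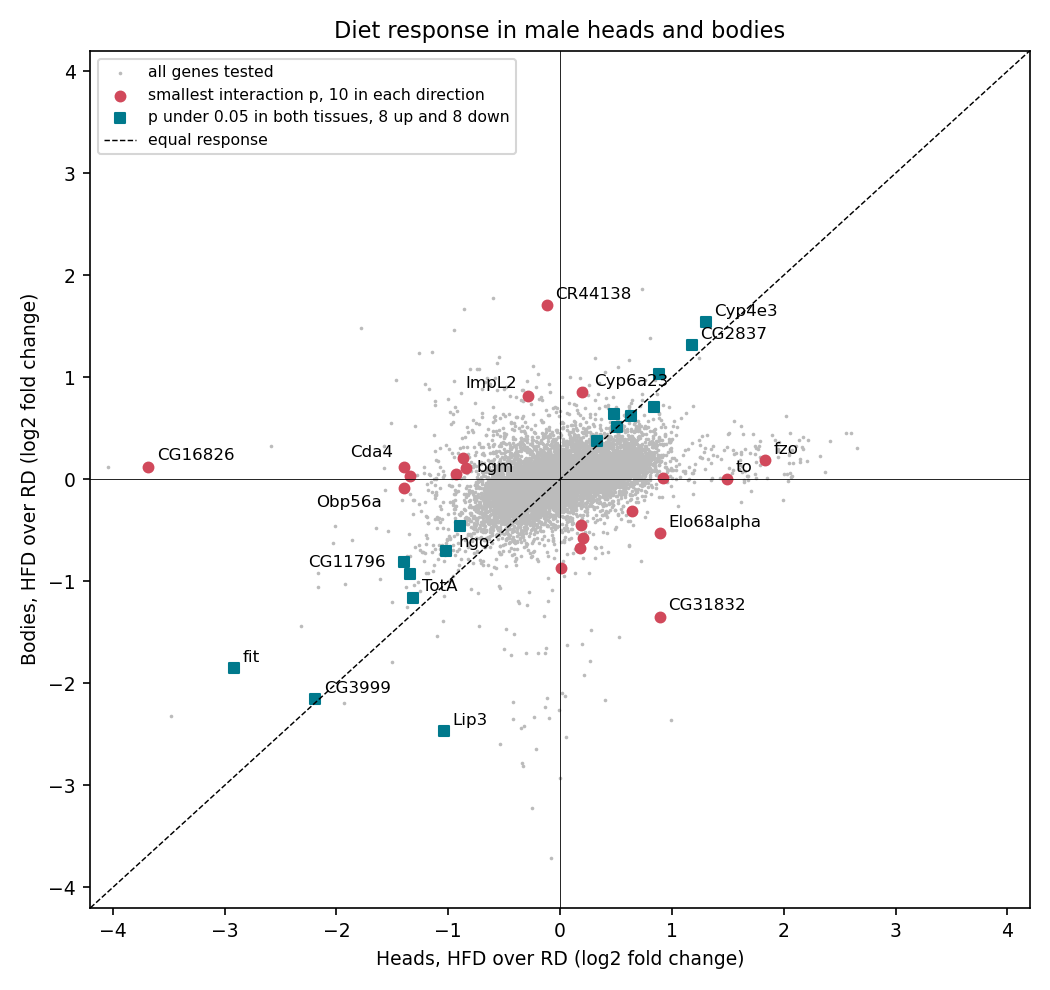
Log2 fold change of HFD over RD in male heads (x axis) and male bodies (y axis) for 9777 genes (grey), with the 20 genes of smallest interaction p (circles) and 16 genes with an unadjusted p under 0.05 in both tissues (squares), and the line of equal response (dashed). The squares lie at lower left and upper right, while most circles lie near a zero line or at upper left and lower right.

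Enzymes of tyrosine and glycine breakdown leaned lower on HFD, with most members past the threshold in heads and fewer in bodies. Animals break tyrosine down in a chain of steps to fumarate and acetoacetate, and the glycine cleavage system feeds carbon into folate metabolism, in flies largely in the fat body. The study had reported tyrosine and phenylalanine metabolism as enriched among its male head genes from these libraries. The list was chosen with earlier results of these data known, so its counts are no independent evidence. Of the 13 genes of this list that were tested, 10 were lower in HFD heads at an unadjusted p under 0.05 and 0 higher, 4 were lower in HFD bodies and 0 higher (2.18% and 1.5% of all genes were lower in heads and in bodies), and 0 differed between the tissues at that threshold. The median log2 fold change of the list was -1.02 in heads and -0.64 in bodies, with a median interaction of -0.45, beside -0.0279, -0.00585 and -0.00029 over all genes tested. Summed over the list the level was 398 to 869 CPM in HFD heads against 1070 to 1450 CPM in RD heads, and 490 to 697 CPM in HFD bodies against 716 to 1060 CPM in RD bodies, with no overlap in either tissue. Without both HFD 2 libraries 12 of 13 were lower in heads and 6 in bodies, without the RD 1 head 6 and 4, and with the ribosomal share as a covariate 9 and 9. The number with a lower response in heads than in bodies at that threshold was 4 without the HFD 2 head, 2 without both HFD 2 libraries and 2 with the covariate, against 0 over all libraries.

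In that list hgo (FBgn0040211, chromosome arm 2L, 11136393 to 11138565, dm6), the homogentisate dioxygenase of the tyrosine chain, had the smallest p of the average effect of all genes. It was at 26.6, 28.8 and 27.3 CPM in HFD heads against 46.7, 58.8 and 62.8 CPM in RD heads. In bodies it was at 22.8, 23.2 and 24.7 CPM on HFD against 38.2, 43.5 and 33.3 CPM on RD. All HFD libraries were below all RD libraries in both tissues. The log2 fold change was -1.02 (SE 0.15) in heads and -0.70 (SE 0.15) in bodies, with a difference of -0.32 (95% interval -0.79 to 0.14). The average of the tissues, -0.86 (SE 0.11), had an adjusted p of 0.0684, and over the alternatives the adjusted p of this average ran from 5.02e-08 (DESeq2) to 0.874 (a replicate number as an additive term). It was under the threshold, at 0.0424, without the RD 1 head, and at 0.0378 without both HFD 2 libraries. The study had picked hgo, and also fit, CG3999, Cpr100A and CG11796, for qPCR on other samples from results of these libraries, so their values here are no independent evidence.

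CG11796 (Hpd, FBgn0036992), the hydroxyphenylpyruvate dioxygenase 1 step before hgo, was at 116, 47.2 and 104 CPM in HFD heads against 262, 186 and 256 CPM in RD heads. Its bodies held 52.7, 41.5 and 43.5 CPM on HFD against 79.0, 82.6 and 80.5 CPM on RD. The groups did not overlap in either tissue, and the log2 fold changes were -1.40 (SE 0.29) in heads and -0.81 (SE 0.28) in bodies. Its exons share 273 bases with a long non-coding RNA gene on the opposite strand, and the strand setting of the counting is not given in the sources used here. CG3999, the glycine decarboxylase of the glycine cleavage system, was at 4.25, 1.07 and 1.89 CPM in HFD heads against 10.4, 13.1 and 10.3 CPM in RD heads. HFD bodies held 6.91, 4.04 and 3.51 CPM of it against 14.98, 39.8 and 10.3 CPM in RD bodies. Here the responses were -2.19 (SE 0.58) in heads and -2.15 (SE 0.57) in bodies, and their difference of -0.03 had a 95% interval of -1.70 to 1.63.

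CG6188, the gene of glycine N-methyltransferase (Gnmt), which uses S-adenosylmethionine to methylate glycine, was at 17.9, 1.87 and 3.57 CPM in HFD heads against 54.2, 41.6 and 22.7 CPM in RD heads. HFD bodies held 131, 72.1 and 71.3 CPM against 245, 348 and 148 CPM in RD bodies. Every HFD library lay below every RD library of its tissue, with the HFD 2 libraries the highest of their groups. The log2 fold change was -2.32 (SE 0.71) in heads and -1.43 (SE 0.68, unadjusted p = 0.061) in bodies. Without the HFD 2 libraries it was -3.84 in heads and -1.79 in bodies, and the difference between the tissues had an unadjusted p of 0.0103. Hn, the phenylalanine hydroxylase that makes tyrosine, was the member with the smallest body response among those lower in heads: -0.60 (SE 0.21, unadjusted p = 0.016) in heads and -0.04 (unadjusted p = 0.85) in bodies, a difference of -0.55 with an unadjusted p of 0.088. GstZ2, the maleylacetoacetate isomerase between hgo and the last step, was the reverse, at -0.32 (unadjusted p = 0.12) in heads and -0.66 (unadjusted p = 0.0061) in bodies.

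Secreted and storage proteins of the fat body lay lower on HFD in both tissues for 7 of 8 tested members, takeout being the exception. At an unadjusted p under 0.05, 2.18% of all genes were lower and 3.04% higher in HFD heads, and 1.5% lower and 0.634% higher in HFD bodies. Of the 8 tested members 5 were lower and 1 higher in HFD heads at that threshold, and 3 were lower and 0 higher in HFD bodies. The medians were -0.85 in heads and -0.86 in bodies. Without the RD 1 head 2 were lower in heads, and without the RD 3 body 6 were lower in bodies. Rfabg, the apolipophorin that carries lipid in the haemolymph and the member of highest mean, had -0.19 (SE 0.34) in heads and -0.62 (SE 0.34) in bodies with overlap in both. Lsp2 (FBgn0002565, 3L, 12129393 to 12131869), a hexamerin that stores amino acids in the haemolymph, was at 30.4, 2.67 and 2.69 CPM in HFD heads against 185, 162 and 56.7 CPM in RD heads. HFD bodies held 6.51, 3.28 and 2.85 CPM against 15.4, 36.0 and 13.1 CPM in RD bodies. The HFD 2 libraries were again the highest of the HFD groups, without overlap with RD. Its responses were -3.48 (SE 0.94) in heads and -2.32 (SE 0.92) in bodies, a difference of -1.15 (95% interval -3.89 to 1.59). Without the HFD 2 libraries they were -5.65 and -2.80, with an unadjusted interaction p of 0.00823. An antisense RNA gene covers 2096 exon bases of Lsp2, so reads of the pair cannot be told apart here.

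fit (FBgn0038914), a small secreted fat body protein known as a satiety signal after protein feeding, was at 0.82, 0.53 and 0.40 CPM in HFD heads against 8.07, 3.07 and 2.63 CPM in RD heads. Its bodies held 0.56, 0.76 and 0.80 CPM on HFD against 3.46, 2.55 and 1.60 CPM on RD. The groups did not overlap in either tissue, and the responses were -2.92 (SE 0.51) in heads and -1.85 (SE 0.50) in bodies. The HFD levels of fit lie close to the low-count filter, which it passed in heads through the RD heads, where it was the higher. No support is therefore drawn from its lack of overlap. Lsp1beta, the other storage hexamerin tested, had -1.93 in heads (unadjusted p = 0.021) and -2.20 in bodies (unadjusted p = 0.019). The study chose Lsp2, Gnmt, Cyp4e3 and CG5953 as genes common to its comparisons on these same libraries, so their shared direction here is no independent evidence.

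The Turandot genes, which encode secreted peptides induced by heat, infection and other stress, had lower values on HFD in both tissues for most members. At an unadjusted p under 0.05, 2.18% of all genes were lower in HFD heads and 1.5% in HFD bodies. Of 4 tested members 3 were lower in HFD heads and 2 in HFD bodies at that threshold, and 0 were higher in either. Without the HFD 2 body 1 was lower in bodies, and without the HFD 2, HFD 4 or RD 1 head 2 were lower in heads. The list summed to 110 to 128 CPM in HFD heads against 297 to 324 CPM in RD heads, and to 49.8 to 82.9 CPM in HFD bodies against 95.8 to 211 CPM in RD bodies. TotA was at 81.2, 105 and 73.4 CPM in HFD heads against 218, 221 and 205 CPM in RD heads. HFD bodies had 39.7, 59.0 and 47.3 CPM against 87.4, 172 and 66.8 CPM in RD bodies. The responses of -1.31 (SE 0.31) and -1.16 (SE 0.31) differed by -0.15 (95% interval -1.11 to 0.81). TotM, the exception, had -0.91 in heads (unadjusted p = 0.084) and 0.05 in bodies (unadjusted p = 0.92). The split of reads among these related genes is uncertain, since the sources used here do not say how reads matching more than 1 gene were counted. The study had reported lower TotA, TotC and TotM in male heads from these libraries, so the head counts of this list are no independent evidence.

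The other lower genes named by the rule were Cpr100A, a cuticle protein gene, CG6293 and Lip3. Cpr100A had -1.34 (SE 0.28) in heads and -0.93 (SE 0.29) in bodies, and CG6293 -0.90 (SE 0.19) and -0.46 (SE 0.19), both without overlap of the groups. Lip3, a lipase gene, was at 0.72, 0.36 and 0.74 CPM in HFD heads against 0.99, 1.71 and 1.16 CPM in RD heads. In bodies Lip3 was at 0.80, 0.38 and 0.44 CPM on HFD against 4.88, 2.61 and 1.96 CPM on RD. Its response was further below 0 in bodies (-2.47, SE 0.44) than in heads (-1.04, SE 0.45), a difference of 1.43 (95% interval 0.03 to 2.83, unadjusted p = 0.047). The HFD levels of Lip3 lie close to the low-count filter. It passed that filter in both tissues through the RD libraries, where it was the higher, so no support is drawn from its values.

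Some of the other lower genes, chosen after their values were seen, had close estimates in the tissues, with sxe2 further apart. AsnS, an asparagine synthetase listed in the table as asparagine-synthetase, had -0.69 in heads and -0.80 in bodies. UGP, which makes the UDP-glucose used for glycogen, had -0.47 and -0.44, and Mtp, which loads lipid onto lipoproteins, had -0.42 and -0.46. Manf, a secreted protein of the endoplasmic reticulum, had -0.49 in each tissue, and GstE9, a glutathione transferase, -0.67 and -0.66. sxe2, a lipase-like gene, was far more abundant in heads, with a mean of 225 CPM in HFD heads and 485 CPM in RD heads, against 9.09 CPM in HFD bodies and 26.4 CPM in RD bodies, and had responses of -1.10 and -1.53. None of these differences had an unadjusted interaction p under 0.05.

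Fewer genes were higher on HFD in both tissues. Cyp4e3 (FBgn0015035, 2L, 9747839 to 9750071), a cytochrome P450, was at 9.02, 11.1 and 17.9 CPM in HFD heads against 4.10, 6.19 and 5.10 CPM in RD heads. HFD bodies held 10.9, 14.6 and 19.4 CPM against 4.49, 5.52 and 5.38 CPM in RD bodies. The responses of 1.30 (SE 0.30) and 1.54 (SE 0.30) differed by -0.24 (95% interval -1.16 to 0.68). CG5953 was at 16.7, 35.2 and 23.8 CPM in HFD heads against 14.3, 12.8 and 15.2 CPM in RD heads, and at 17.9, 23.3 and 26.7 CPM in HFD bodies against 15.6, 10.1 and 15.7 CPM in RD bodies. Neither gene had any overlap of the diets. The other 6 were CG2837, CG43236 (annotated as Metchnikowin-like), CG12290, CG1146, the long non-coding RNA CR31781 and dnr1, a ubiquitin ligase known to restrain immune signalling, with responses of 0.33 to 1.18 in heads and 0.38 to 1.31 in bodies. Only dnr1 among the 8 had an overlap, in heads. Of the cytochrome P450 genes as a whole, 64 were tested: 3 were higher and 8 lower in HFD heads and 3 were higher and 2 lower in HFD bodies at an unadjusted p under 0.05, with medians of -0.12 and -0.08, beside 3.04% higher and 2.18% lower of all genes in heads and 0.634% and 1.5% in bodies. Without the RD 1 head or the HFD 4 head 1 was lower in heads.

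**Figure D3:**
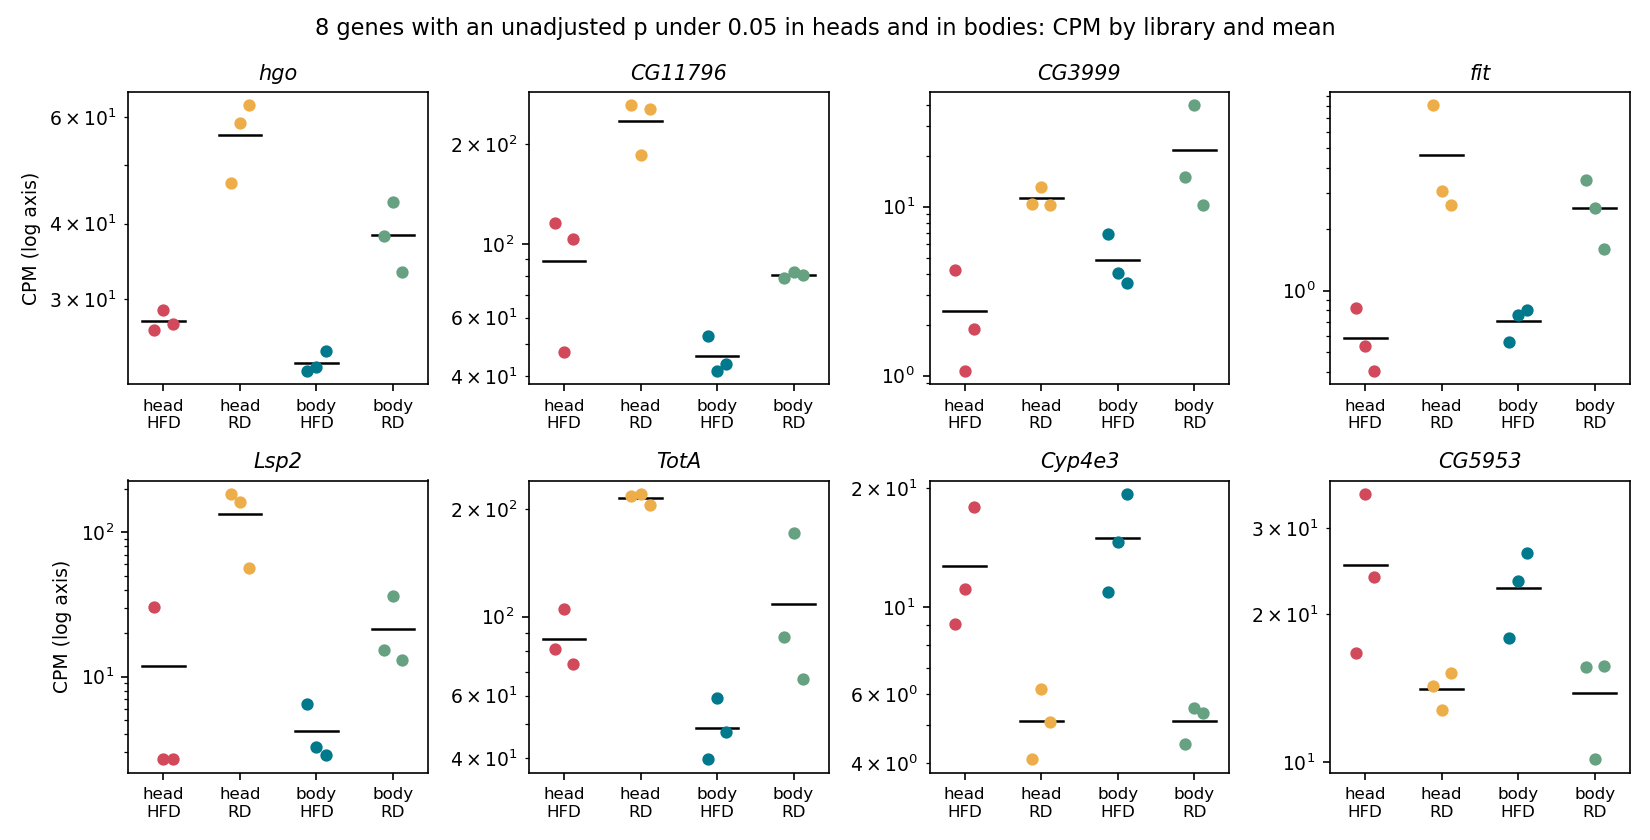
CPM in each of the 12 male libraries (points, log axes) with the group mean (bar) for 8 genes with an unadjusted p under 0.05 in heads and in bodies, groups from left to right head HFD, head RD, body HFD and body RD. In hgo, CG11796, CG3999, fit, Lsp2 and TotA the HFD points lie below the RD points in both tissues, and in Cyp4e3 and CG5953 above them.

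The genes whose responses lay furthest apart by p were Cda4 and ImpL2, both with the lower response in heads. Cda4 (FBgn0052499, X, 22583634 to 22632710), a chitin deacetylase-like gene, had the smallest interaction p of all genes tested. It was at 1.35, 1.60 and 1.14 CPM in HFD heads against 3.35, 3.24 and 4.14 CPM in RD heads, and at 4.07, 2.44 and 3.15 CPM in HFD bodies against 2.93, 3.64 and 2.42 CPM in RD bodies. The head libraries did not overlap and the body libraries did. The difference of -1.51 (SE 0.36, 95% interval -2.31 to -0.72) came with -1.39 (SE 0.26) in heads and 0.12 (SE 0.25) in bodies, and its unadjusted p was 0.00161 and its adjusted p 0.994.

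ImpL2 (FBgn0001257, 3L, 4224006 to 4236147), a secreted protein that binds insulin-like peptides and dampens insulin signalling, differed through the bodies. In heads it was at 59.1, 77.8 and 61.7 CPM on HFD against 93.7, 79.0 and 70.2 CPM on RD, with overlap. It was at 187, 243 and 259 CPM in HFD bodies against 157, 125 and 110 CPM in RD bodies, every HFD body above every RD body. The response was -0.29 (SE 0.20) in heads and 0.81 (SE 0.20) in bodies, a difference of -1.11 (SE 0.28, 95% interval -1.72 to -0.49, unadjusted p = 0.00225). Without the HFD 2 libraries the difference was -1.16. The exons of ImpL2 share 1651 bases with CG46460 on the same strand. Among the 17 tested genes of insulin and adipokinetic hormone signalling, ImpL2 was the 1 with an unadjusted interaction p under 0.05. Thor, a translation repressor that FOXO switches on, was at 146, 114.5 and 112 CPM in HFD heads against 163, 79.7 and 95.8 CPM in RD heads, with overlap. HFD bodies held 279, 226 and 249 CPM of Thor against 159, 123 and 173 CPM in RD bodies, without overlap. Its responses of 0.14 (SE 0.26) in heads and 0.73 (SE 0.26) in bodies differed by -0.59 (95% interval -1.39 to 0.22). InR, the insulin receptor, had log2 responses of 0.98 in heads (unadjusted p = 0.029) and 0.71 in bodies (unadjusted p = 0.094), with overlap in both.

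takeout (to, FBgn0039298, 3R, 25240180 to 25241668), a secreted protein of the head fat body and antennae tied to feeding and the clock, was higher in all HFD heads and overlapped in bodies. It was at 66.7, 166 and 127 CPM in HFD heads against 29.4, 47.4 and 51.0 CPM in RD heads, without overlap, and at 61.8, 85.0 and 71.3 CPM in HFD bodies against 89.0, 73.5 and 54.4 CPM in RD bodies, with overlap. The responses were 1.49 (SE 0.33) in heads and 0.01 (SE 0.33) in bodies, a difference of 1.48 (95% interval 0.45 to 2.51, unadjusted p = 0.00907). Cyp6a23, a cytochrome P450, was at 49.1, 69.4 and 59.9 CPM in HFD heads against 42.3, 56.3 and 57.1 CPM in RD heads. It was higher in all HFD bodies, at 204, 212 and 184 CPM against 112, 121 and 98.8 CPM in RD bodies. Its difference was -0.66 (SE 0.24, unadjusted p = 0.020). The study picked to, Cyp6a23 and Thor for qPCR from results of these libraries.

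CG31832 had the smallest p among genes with the higher response in heads. It was at 1.26, 4.44 and 2.63 CPM in HFD heads against 1.12, 2.01 and 1.26 CPM in RD heads, with overlap, and at 5.35, 5.34 and 4.32 CPM in HFD bodies against 17.5, 13.2 and 7.52 CPM in RD bodies, without overlap. The difference was 2.24 (SE 0.63, unadjusted p = 0.0047). Slc45-1, a sugar transporter gene, was 1 of the 9 genes whose libraries were free of overlap in opposite directions. The others were CG16879, lcs, CG5535, Cpr76Bc, CG9194, CG5380, CG6325 and asp. Slc45-1 was at 23.7, 24.3 and 24.2 CPM in HFD heads against 16.3, 22.9 and 23.2 CPM in RD heads, and at 17.3, 18.1 and 19.1 CPM in HFD bodies against 29.1, 29.1 and 22.9 CPM in RD bodies. Its edgeR responses were 0.21 (SE 0.17, unadjusted p = 0.23) in heads and -0.58 (SE 0.17, unadjusted p = 0.0056) in bodies. The head groups were thus only narrowly apart, and no rise in heads is read from them. CG11550, Hsp67Bc (a small heat shock protein) and Syx1A (the syntaxin of synaptic vesicle release) had head responses of 0.18, 0.00 and 0.19 and body responses of -0.68, -0.87 and -0.44. Syx1A shares 447 exon bases with eIF4EHP on the same strand.

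bgm, a very long-chain acyl-CoA synthetase, was at 40.0, 26.8 and 24.03 CPM in HFD heads against 74.5, 42.9 and 45.5 CPM in RD heads, without overlap. Its bodies were at 134, 117 and 104 CPM on HFD against 121, 106 and 100.3 CPM on RD. Its responses were -0.84 (SE 0.25) in heads and 0.11 (SE 0.24) in bodies. Lip2, a lipase gene, had -0.87 (SE 0.28) in heads and 0.21 (SE 0.27) in bodies. Of the 16 digestive and secreted lipases 6 were tested, and 2 had a higher and 1 a lower response in heads at an unadjusted interaction p under 0.05, beside 0.716% of all genes in either direction. Without the HFD 4 head or the RD 1 head there were 0. The 2 were Lip3 (above) and CG31091, whose difference was 2.07 with overlap in both tissues. The other was Lip1, at 0.63, 0.44 and 0.13 CPM in HFD heads against 2.30, 0.77 and 0.71 CPM in RD heads. These head levels lie close to the low-count filter, which Lip1 passed through the RD heads, where it was the higher, and RD 1 held the top value, so no support is drawn from its value. Cyp4d21, a cytochrome P450 with 323 to 768 CPM in HFD heads and 394.6 to 449.6 CPM in RD heads, was at 24.3, 37.4 and 23.6 CPM in HFD bodies against 56.98, 39.1 and 49.3 CPM in RD bodies, with a difference of 1.08 (SE 0.43), and was singled out after its values were seen. The RD 3 body, at 49.3 CPM, is the one with 2690 CPM of photoreceptor markers, and the part of head RNA in this value was not tested. Obp56a, an odorant-binding protein gene, was at 8.11, 3.38 and 5.18 CPM in HFD heads against 13.9, 17.6 and 12.9 CPM in RD heads and overlapped in bodies, with a difference of -1.31 (SE 0.43).

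**Figure D4:**
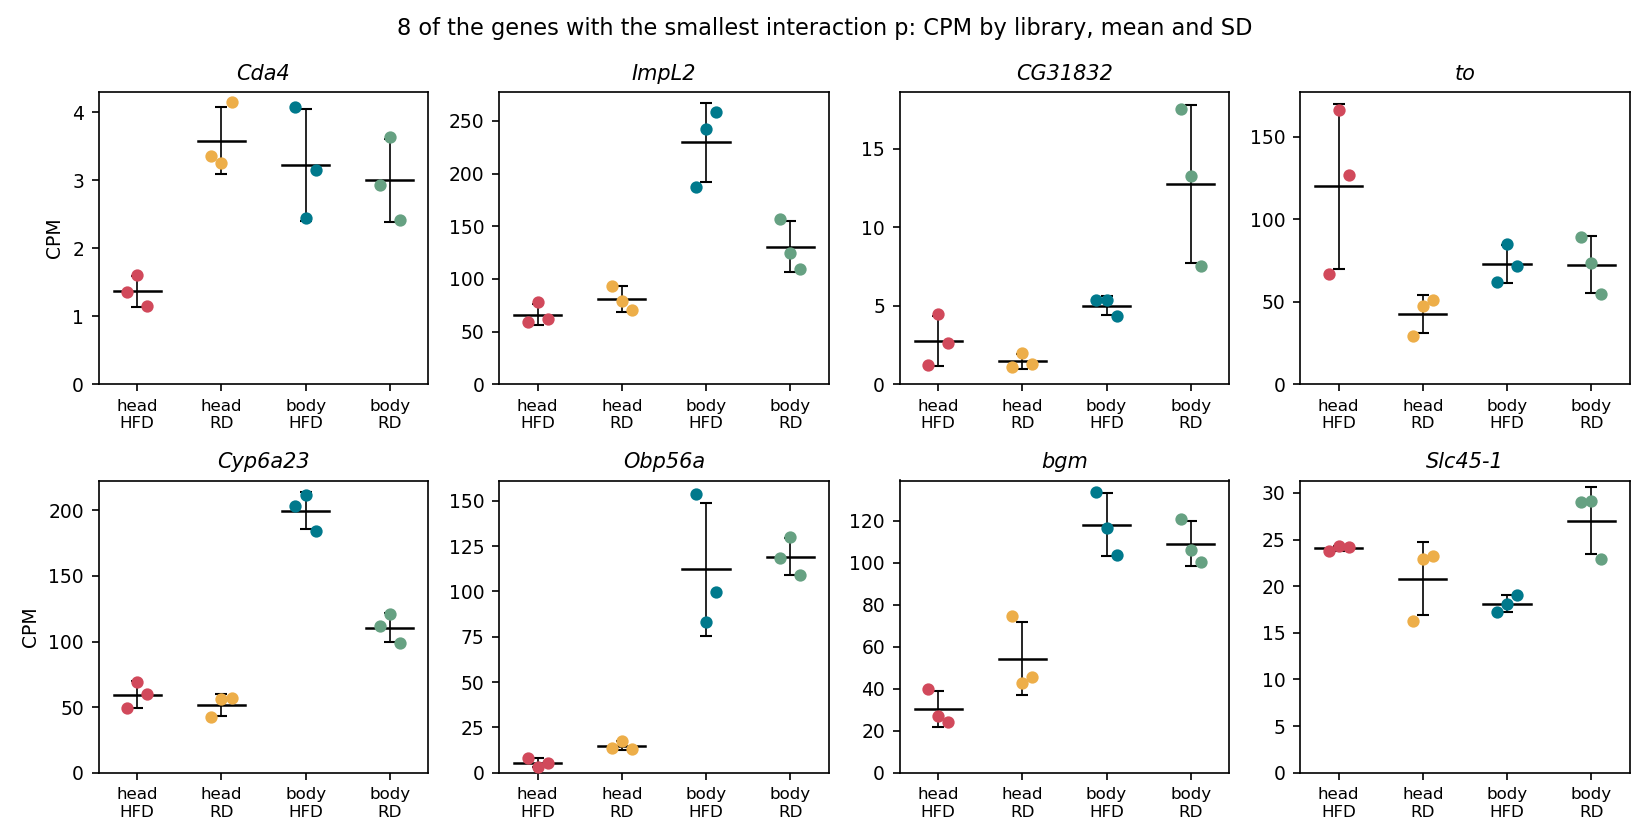
CPM in each of the 12 male libraries (points) with the group mean and SD (bars, n = 3) for 8 of the genes with the smallest interaction p, groups from left to right head HFD, head RD, body HFD and body RD, axes from 0. In Cda4, to, Obp56a and bgm the head groups are apart and the body groups overlap, and in ImpL2, CG31832 and Cyp6a23 the body groups are apart and the head groups overlap. In Slc45-1 both are apart in opposite directions, only narrowly so in heads.

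Several of the named differences rested on head levels far under the body levels or on 1 library. fzo, a mitofusin of sperm development, was at 0.68, 0.80 and 2.22 CPM in HFD heads against 0.31, 0.29 and 0.40 CPM in RD heads, and at 116 to 169 CPM in HFD bodies and 125 to 138 CPM in RD bodies. Its highest head library, HFD 4, is the one with 229.9 CPM of testis markers. At an unadjusted p under 0.05, 3.04% of all genes were higher in HFD heads and 0.634% in HFD bodies. Of the 15 testis markers tested 11 were higher in HFD heads at that threshold (median 1.68), beside 0 in HFD bodies (median 0.18). Without the HFD 4 head 1 of 16 was, with a median of 0.22, and without the RD 1 head 5 of 18 were. CG13733, Elo68alpha (a fatty acid elongase) and CG17104 were also at or under 2 CPM in every head library and above 27 CPM in every body library. fzo and Elo68alpha passed the low-count filter in heads through the HFD heads, where they were the higher, and CG13733 lay close to that filter in RD heads. No support is therefore drawn from the differences of these 3 genes. CG16826 had the most negative difference of the 20 (-3.81, SE 1.43): it was at 1.59, 1.87 and 2.02 CPM in HFD heads against 65.4, 2.54 and 2.48 CPM in RD heads, so the RD 1 head set the value, beside 1841 to 2800 CPM in HFD bodies and 1855 to 2112 CPM in RD bodies. That RD 1 head also had 38.7 CPM of midgut markers, against 2.63 to 13.8 CPM in the other heads. The part of these markers in the differences was not tested. The remaining 3 named genes, CR44138, CG30090 and CG16879, had differences of -1.83, -1.37 and 0.95.

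The 70 genes at an unadjusted interaction p under 0.05 were parted by the unadjusted p of each tissue. It was under 0.05 in heads alone for 31 genes, in bodies alone for 21, in both for 1 and in neither for 17. A p of 0.05 or more in a tissue does not show that a response was absent there. In 55 of the 70 the head and body fold changes had opposite signs, while 69.1% of all genes tested had the same sign. The 70 were chosen by the difference between these same fold changes, so opposite signs were partly built in and are not a result.

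The remaining pathways were set out by list, with 0.716% of all genes at an unadjusted interaction p under 0.05 as the background. For each tissue on its own, 2.18% of all genes were lower in HFD heads and 1.5% in HFD bodies at an unadjusted p under 0.05. Of 15 genes of fat storage and synthesis 2 were lower in HFD heads and 1 in HFD bodies, and 0 differed between tissues at that threshold. CG3523 (FASN1, fatty acid synthase) was at 575, 395 and 409 CPM in HFD heads against 1192, 626 and 652 CPM in RD heads, without overlap, and at 1376, 1265 and 1124 CPM in HFD bodies against 1400, 1578 and 1176 CPM in RD bodies, with overlap. Its responses of -0.84 (SE 0.27) and -0.14 (SE 0.27) differed by -0.70 (95% interval -1.56 to 0.16). ACC, acetyl-CoA carboxylase, had -0.74 in heads (unadjusted p = 0.039) and -0.50 in bodies (unadjusted p = 0.14), and ATPCL, ATP citrate lyase, -0.32 (unadjusted p = 0.16) in heads and -0.48 (unadjusted p = 0.047) in bodies. Desat1, the fatty acid desaturase with the highest mean of the list, had -0.16 in heads and 0.12 in bodies. Without the RD 1 head 0 of the 15 were past the threshold in either tissue, and without the HFD 3 or the HFD 4 head 1 was in heads.

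Mitochondrial beta-oxidation genes (12 tested) had a median of -0.49 in heads and -0.08 in bodies, with 1 lower in HFD heads at the threshold and 0 in bodies. Ribosomal protein genes (81 tested) had -0.59 and 0.07, oxidative phosphorylation genes (14) -0.60 and -0.09, and glycolysis genes (13) -0.30 and -0.08, with 0 past the threshold in either tissue or in the interaction. These lists followed single libraries. The median interaction of the ribosomal protein list was -0.57 over all 12 libraries, 0.05 without the RD 1 head, 0.09 without the HFD 2 body, -0.19 without the HFD 3 head and -1.62 without the HFD 2 head. Without the HFD 2 head 43 of the 81 were lower in heads at the threshold, and without both HFD 2 libraries 59. Oxidative phosphorylation had -0.37 over all libraries, and 0.23, 0.41, 0.05 and -1.17 without the RD 1 head, the HFD 2 body, the HFD 3 head and the HFD 2 head. For beta-oxidation it was -0.31 over all libraries, and 0.03, 0.08, -0.0024 and -1.12 in the same settings, and for glycolysis -0.25, and 0.28, 0.24, -0.12 and -0.87. No direction is therefore given for these lists, and with the ribosomal share as a covariate their median interactions were 0.15, 0.42, 0.12 and 0.19, in the order given.

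Antimicrobial peptide genes (9 tested), which the fat body makes on infection, had medians of -0.80 in heads and 0.34 in bodies with 0 past the threshold in either tissue. AttB, an attacin, was the 1 with an unadjusted interaction p under 0.05. It was at 16.3, 4.80 and 6.53 CPM in HFD heads against 15.6, 14.3 and 18.6 CPM in RD heads, and at 42.5, 17.9 and 13.8 CPM in HFD bodies against 6.44, 10.6 and 18.2 CPM in RD bodies, overlapping in both tissues. The body median was -1.05 without the HFD 2 body, and the head median 0.30 without the RD 1 head and 0.02 without the HFD 3 head, so each sign turned with 1 library. Of the starch and sugar enzymes (8 tested), Mal-B1, a maltase, had 0.22 in heads and 0.89 in bodies (unadjusted p = 0.0014), a difference of -0.67 (unadjusted p = 0.044). tobi, an alpha-glucosidase that answers to insulin-producing cells and glucagon-like hormone, was at 10.9, 2.84 and 6.596 CPM in HFD heads against 38.5, 27.0 and 17.8 CPM in RD heads, and its bodies overlapped. Its exons share 78 bases with rha. Neuropeptides of feeding and gut (14 tested) and circadian clock genes (9) had 0 members past the interaction threshold, with medians of 0.19 and 0.14 in heads and -0.04 and -0.0041 in bodies. The clock median in heads was -0.09 without the HFD 3 head, and the neuropeptide median in bodies 0.24 without the RD 3 body.

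Photoreceptor markers had a median interaction of 2.09, from -0.24 in heads and -2.33 in bodies, with 0 of 13 past the threshold. Without the RD 3 body, which held 2690 CPM of them, the median interaction was -1.47. Brain and neuron markers (9 tested) had 0.64 in heads and 0.15 in bodies, with Syx1A past the interaction threshold. Without the HFD 3 head the median in heads was 0.17, and without the HFD 2 head 6 of the 9 were higher in heads at the threshold.

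**Figure D5:**
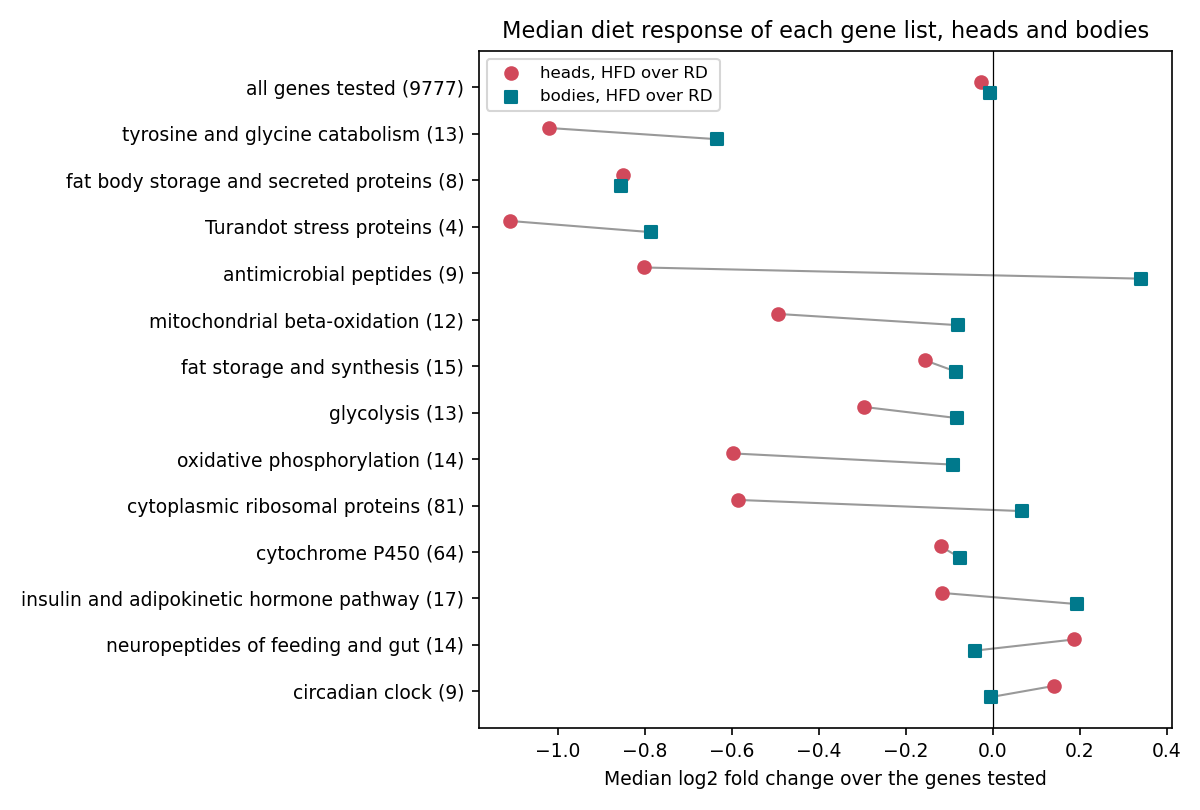
Median log2 fold change of HFD over RD in male heads (circles) and male bodies (squares) for all genes tested and for 13 gene lists, with the number of genes tested in brackets. The tyrosine and glycine, storage protein and Turandot lists lie between -1.11 and -0.64 in both tissues, and the antimicrobial peptide and ribosomal protein lists lie below 0 in heads (-0.80 and -0.59) and above 0 in bodies (0.34 and 0.07), signs that single libraries turned.

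Genes that passed the filter in 1 tissue only have no interaction value. There were 398 such genes in heads and 3158 in bodies. Fitted tissue by tissue, 144 of 10175 genes in heads (1.42%) and 490 of 12935 in bodies (3.79%) had an unadjusted p under 0.05, among them 12 of the 398 (10 higher and 2 lower on HFD) and 160 of the 3158 (98 higher and 62 lower), and 0 had an adjusted p under 0.05 (smallest 0.809 in heads and 0.452 in bodies). Of the 12 genes of male bodies that the study had picked for qPCR from results of these libraries, 9 were among the body genes. CG7916, 1 of these, was at 48.3, 50.2 and 36.7 CPM in HFD bodies against 220, 371 and 173 CPM in RD bodies, and under 2 CPM in every head. mag, a gut lipase, was at 40.8, 28.4 and 38.6 CPM in HFD bodies against 107, 165 and 84.4 CPM in RD bodies, and CG5724, also a qPCR gene, was at 29.5, 34.6 and 25.2 CPM in HFD bodies against 10.6, 10.7 and 11.9 CPM in RD bodies. These 3 are measured in bodies alone, so nothing here says how heads would respond. Midgut markers as a whole ran from 613 to 6560 CPM in HFD bodies and from 1180 to 3210 CPM in RD bodies, and their part was not tested.

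In females the same contrast gave 0 called genes of 9336 and 284 (3.04%) at an unadjusted p under 0.05, 70 higher in heads and 214 higher in bodies. Of the 9 genes tested in females among the 10 named in males with a lower response in heads, 8 had a female difference below 0, and of the 6 tested among the 10 with a higher response in heads 2 had one above 0. The median female difference over all genes was -0.0171. The share of all female genes below 0 is not given here, so no agreement between the sexes is read from these counts. ImpL2 had a female difference of -0.22 (SE 0.45), Cda4 -0.22 (SE 0.76) and to, the takeout gene, 0.28 (SE 0.41), beside -1.11, -1.51 and 1.48 in males, and the difference between the sexes was not tested. The named genes of the contrast with an unadjusted female p under 0.05 were CR44138, at -1.76 (SE 0.64) beside -1.83 in males, and CG16826, at 5.08 (SE 1.87) beside -3.81 in males. The male value of CR44138 was -0.89 without both male HFD 2 libraries, so its size leaned on them. CG16826 was at 0.97, 2.85 and 175.8 CPM in HFD female heads against 1.27, 1.28 and 1.40 CPM in RD female heads, so 1 library again held the value. Of the genes named as alike in males, 5 of the 7 higher ones tested in females were higher there on average at an unadjusted p under 0.05, and 2 of the 8 lower ones were lower. The shares of all female genes at that threshold are not given here, so these counts are a description. Cyp4e3 had log2 responses of 2.06 in female heads and 0.74 in female bodies, a difference of 1.32 (SE 0.55), beside -0.24 (SE 0.42) in males.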

How the data were processed

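RNA of male heads and bodies was sequenced as paired reads from TruSeq Stranded mRNA libraries and aligned by the authors with TopHat at default settings; the submitters' processing notes name featureCounts and dm6, without versions, and the methods name a mouse annotation. The authors deposited raw counts, in whole reads for each gene, not normalized. The strand setting is not given in the sources used here. Total counts per library ranged from 13.4 to 25.7 M, and nothing says that replicates were separate cultures, so p-values measure only the spread between these libraries.

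Counts were analysed in R 4.3.3 with edgeR 4.0.16 (glmQLFit and glmQLFTest), 1 coefficient per group. Genes passed filterByExpr (minimum count 10, total 15) in heads and in bodies separately, TMM factors were computed within each tissue, and Benjamini-Hochberg adjusted p-values were read at a threshold of 0.05. CPM of single genes are TMM-normalized, while sums over lists are per total counts. The SE is the log2 fold change divided by the square root of F. Intervals of 95% use the test's degrees of freedom. DESeq2 1.42.0, limma 3.58.1, other scalings and filters, replicate blocks, an unadjusted threshold and left-out libraries were alternatives. The tests were checked on simulated counts drawn independently for each gene and library. These held no axis shared by libraries, so the check does not show that the p-values are exact for these data. The 0.716% of genes at an unadjusted interaction p under 0.05 lies below the 5% that exact p-values would give if no gene differed.

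Named genes were the 10 of smallest interaction p in each direction, the 8 higher and 8 lower with an unadjusted p under 0.05 in both tissues and the smallest average p, the study's qPCR and common genes, and list members past the interaction threshold or of highest mean; other list members and genes measured in 1 tissue were chosen after their values were seen. The members and lists were chosen with earlier results of these data known, and the Mst57 genes, expressed in accessory glands, were left out of the testis markers. Identifiers and coordinates are from the Ensembl 115 annotation of BDGP6, the assembly of dm6, in which 16524 of 16727 symbols matched.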

Additional observations from a re-analysis of the deposited data

How the results depend on the processing

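The tissue by diet interaction in males stayed at 0 called genes under DESeq2, limma-voom, every scaling and filter, each left-out library and each left-out head and body pair of a number. It gave 125 genes, 105 of them higher in heads, under limma-voom with sample quality weights, where 4 libraries had weights of 0.11 to 0.32, and 70 at an unadjusted p under 0.05. The diet effect in male heads gave 710 with quality weights, 510 unadjusted and 12 under DESeq2, and the diet effect in male bodies 1727, 209 and 3. The average diet effect in male heads and bodies gave 4085, 650 and 30, and 1 (hgo) with TMM over all libraries. Leaving out libraries gave 0 to 1226 for the average and 0 in heads and in bodies: 1226 without the HFD 2 head and body, 1 (hgo) without the RD 1 head and 1 without the HFD 3 pair. The cause was not tested. Scaling by total counts moved the median of all genes to -0.168 in heads.

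For the tissue by diet interaction in males, genes at an unadjusted p under 0.05 ran from 46 to 756 over single libraries left out: 756 without the HFD 2 head, 135 without the HFD 2 body, 124 without the HFD 3 head and 46 without the RD 1 head or the HFD 4 body. They were 476 without both HFD 2 libraries, and 351 and 410 with looser filters that tested 13308 and 15638 genes. In females DESeq2 gave 1 gene, 284 passed unadjusted, and left-out libraries gave 0.

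The replicate numbers were not taken as pairs, since not every number correlated: deviations of heads and bodies from group means correlated at 0.85, 0.71 and 0.24 for HFD 2, 3 and 4, each head best with the body of its number, but at -0.53, -0.33 and -0.039 for RD 1, 2 and 3. With a replicate block the interaction had 0 called genes by duplicateCorrelation (consensus 0.364), with diet and number fixed and with the number as an additive term, beside 168, 90 and 54 unadjusted.

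For the 39 named genes, 0 of 1220 values under alternatives changed sign, taking the difference between the tissues for the 20 genes named for it and the average effect for the others. Most of these genes were named for a small p of that same effect in these libraries, so a kept sign was largely built in and is no support. Settings in which a gene failed the filter, as fzo did without both HFD 2 libraries, are not among the 1220. Other quantities did turn without both HFD 2 libraries, among them the small body response of Cda4 (-0.09 against 0.12). In alternatives chosen after seeing the data, the ribosomal share as a covariate gave 0 genes for the interaction, 0 in bodies, 1 in heads and 4 for the average, and leaving out the HFD 2 libraries with the RD 3 body gave 13 for the average. At 1 CPM a library holds only 13.4 to 25.7 reads of a gene, which limits the low genes.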

Other observations

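Among genes that passed the filter in heads alone, 3 antennal genes are given here, picked out after their values were seen. Obp83a, an odorant-binding protein gene of the antenna, was at 6.08, 12.3 and 7.27 CPM in HFD heads against 0.99, 0.71 and 0.56 CPM in RD heads. Obp83b was at 5.79, 19.9 and 8.35 CPM in HFD heads against 1.55, 1.42 and 1.16 CPM in RD heads. a10, another antennal gene, was at 2.51, 4.35 and 2.69 CPM in HFD heads against 0.37, 0.18 and 0.40 CPM in RD heads. The groups did not overlap, and none had an adjusted p under 0.05 in edgeR (0.809 for each). a10 passed the low-count filter through the HFD heads, where it was the higher, and Obp83a lay close to that filter in RD heads. No support is therefore drawn from the lack of overlap. In bodies Obp83a was at 4.12 CPM in HFD 3 and 3.58 CPM in RD 2, and at or under 0.52 CPM in the other 4. The wider list of antennal and olfactory genes (57 genes, 23 tested in both tissues), summed to 1520 to 3700 CPM in HFD heads and 2430 to 4640 CPM in RD heads, and to 3150 to 3530 CPM in HFD bodies and 3070 to 3470 CPM in RD bodies. Of the 23 members 15 had a head response below 0, with a median of -0.31, the other direction from the 3 genes. The summed list overlapped between the diets in heads, where the 3 genes did not.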
